A study of Mus musculus with 6 samples.

Results

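The integrated stress response was followed in HT22 cells through 32 genes, all found among the 21878 gene symbols of the expression table. The genes were chosen by name, with earlier results of these data known. They are 4 kinases of the translation factor eIF2α, 2 subunits that direct a phosphatase to it, 6 bZIP transcription factors around ATF4 and CHOP, 7 feedback and stress effectors, 6 amino acid enzymes and 7 amino acid transporters. In the Al group, 13 of the 31 members that could be tested fell (41.9%, beside 23.7% of all tested genes), led by the transporter gene Slc1a5, the hormone gene Fgf21, the pseudokinase gene Trib3 and the transporter gene Slc6a9. Both phosphatase subunits and the factor gene Cebpb were among the 6 that rose (19.4%, beside 25.5% of all tested genes), of which only Ppp1r15b was also called higher under 3 other scalings of the libraries. Some of these scalings lower the log2 fold changes of all genes, and so remove higher calls by construction. Atf4 itself was not called.

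The integrated stress response begins with a kinase that senses stress and phosphorylates eIF2α, which slows the start of most translation while ATF4 mRNA is translated more. ATF4 then pairs with other bZIP factors and turns on genes of amino acid uptake, amino acid synthesis and negative feedback, and its target CHOP, made by Ddit3, is linked to cell death when stress lasts. In neurons the same pathway is known for its links to synaptic plasticity and neurodegeneration. RNA levels were measured here, and neither phosphorylation of eIF2α nor any protein of the pathway was.

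The libraries came from HT22 cells, an immortalised mouse line derived from the hippocampus, as 3 control and 3 Al samples described as biological triplicates. Al cells received 120 µM aluminum maltolate, a soluble complex of aluminum, and the study's general methods give 24 h of exposure. The sample titles give only the letters C and M, and M was read as Al from the study's expression tables, so the direction of each difference rests on that reading. The study lists its control group as cells in medium alone, apart from a maltol group, and calls the untreated libraries controls, and no genetic change was made in either group. The libraries were inputs of an m6A immunoprecipitation, made from fragmented RNA; the immunoprecipitated libraries were not analysed here.

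The deposited values are FPKM, fragments set against gene length and library total. Whole reads behind them could be recovered from the steps of the values, and they summed to between 37712069 and 44140943 per control library and between 20948807 and 26456909 per Al library. Each library was divided by a size factor, the median ratio of its genes to their means, and the result is called scaled FPKM. A gene was called at a Benjamini-Hochberg adjusted P under 0.05 from limma over 12889 genes when its log2 fold change was also beyond 0.58 in either direction. Of 12 neuron markers, 8 stayed below 0.1 FPKM in every library, with Nefm, Snap25 and Calb1 at 0. The summed scaled FPKM of 4 fibroblast markers, nearly all from Col1a1 and Col1a2, was 1719 to 2706 in control and 3044 to 4318 in Al libraries, but of the 4 only Col1a1 was called higher (log2 fold change 0.92), while Dcn (-1.64) and Pdgfra (-1.22) were called lower and Col1a2 (0.47) was not called. For 4 astrocyte markers the sum was 11.9 to 19.5 in control and 1.89 to 2.81 in Al libraries, nearly all from Slc1a3 (log2 fold change -2.96, called lower), while Aldh1l1 (0.088) was not called, Gfap stood at 0.00628 and 0.0954 scaled FPKM on average, untested, and Aqp4 was at 0. The part of depth or of these markers in the results was not tested, and fewer cells of a type cannot be told apart from less RNA per cell.

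Across the members, falls outnumbered rises. Of the 31 tested, 13 were called lower (41.9%, beside 23.7% of all tested genes) and 6 higher (19.4%, beside 25.5% of all tested genes), and 12 were not called. Among the 6, Cbs reached the level needed for testing only through its Al values. Calls in either direction covered 49.2% of all tested genes. Their median log2 fold change was -0.31, beside 0.03 for all tested genes. The 3 Al values lay above all 3 control values for 9 members (35.1% of all tested genes did so) and below them for 17 (33.1% of all tested genes), and the groups were apart in one of these ways for 68.1% of all tested genes. For each of these an exact permutation test, two-sided, gave P = 0.1, and no smaller value can be reached with 3 libraries against 3.

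**Figure D1:**
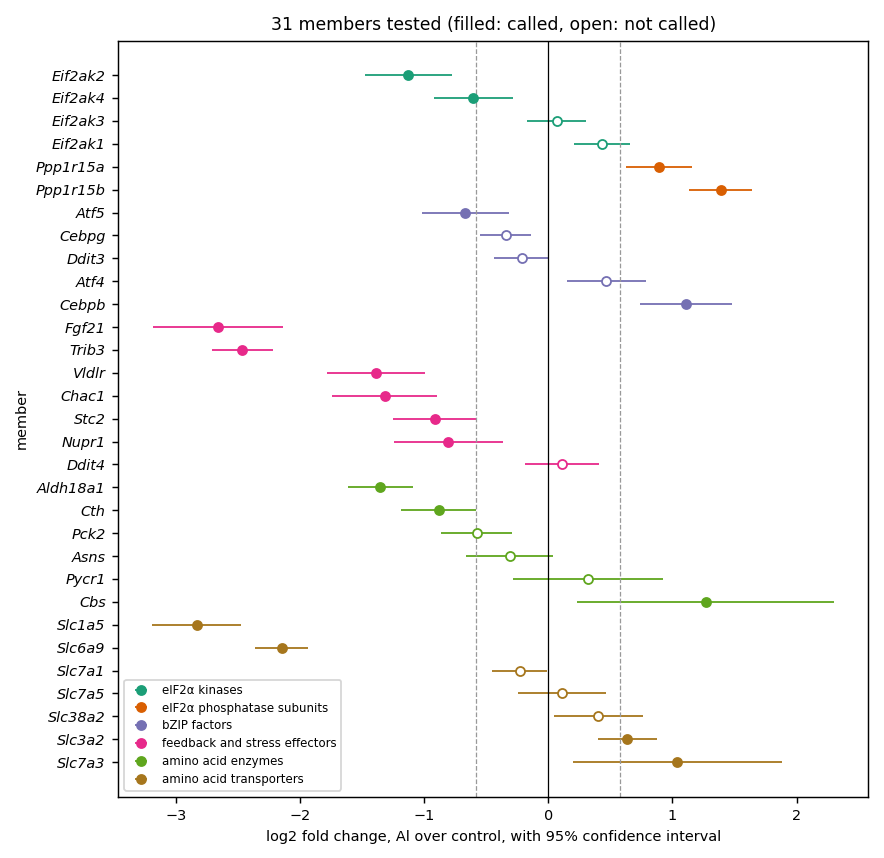
Log2 fold change of the 31 tested members, Al over control, on the horizontal axis, with 1 line per member grouped and coloured by role. Points are limma estimates with 95% confidence intervals, filled where called, and dashed lines mark -0.58 and 0.58; Slc1a5 at -2.83 is the lowest and Ppp1r15b at 1.39 the highest.

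Expression levels differed widely among the members. As deposited, Atf4 was the most abundant member in both groups, at 311 ± 26.7 FPKM in control and 305 ± 7.09 FPKM in Al cells (SD, n = 3 each). Atf5 came next in control cells at 297 ± 6.71 FPKM, a level that did not differ from that of Atf4 beyond the spread, but in Al cells it ranked 5 of 32. Trib3 went from rank 7 to rank 18 and Slc1a5 from rank 14 to rank 24. At the other end, Atf3, a stress factor that ATF4 is known to induce, had 6 reads in control replicate 2, 1 read in Al replicate 3 and 0 in the other libraries, where 0 allows up to 3 reads by counting error. It was not tested.

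**Figure D2:**
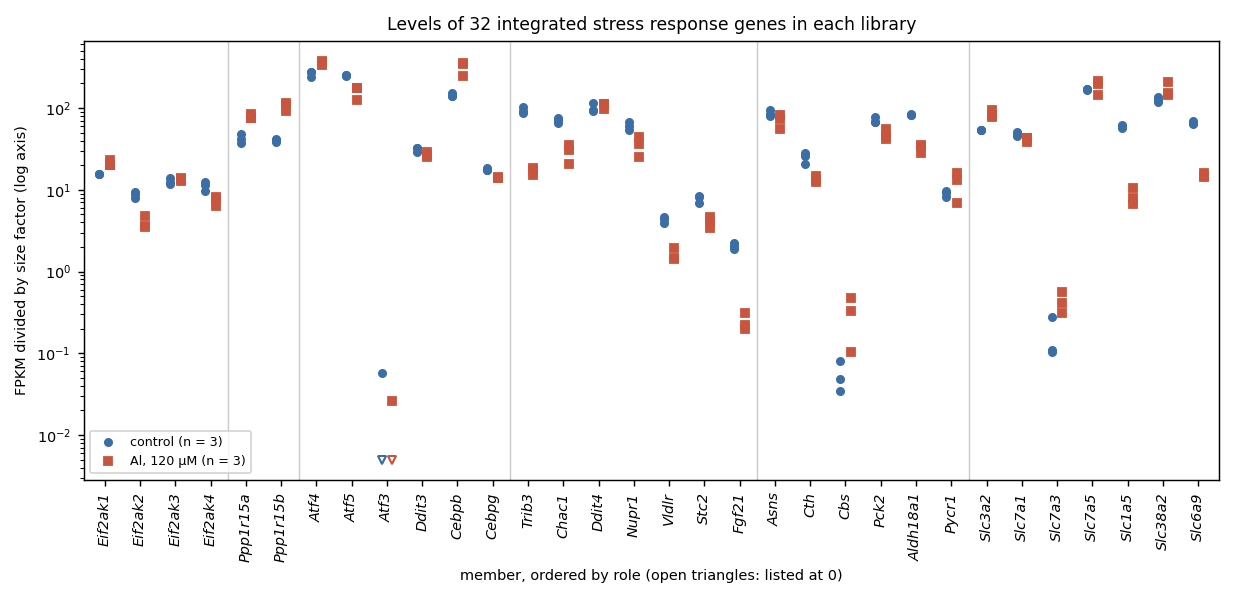
Scaled FPKM of all 32 members in each library on a log axis, ordered by role, with circles for the 3 control and squares for the 3 Al libraries. Open triangles mark values of 0, which occur for Atf3 only; the Al squares of Trib3, Fgf21, Slc1a5 and Slc6a9 sit far below the control circles.

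Promoters were compared because several members are known ATF4 targets. ATF4 with a C/EBP partner binds a composite element whose core reads TTGCATCA, or TGATGCAA on the other strand. RefSeq promoters of GRCm38.p6, from 250 bases before to 50 bases after a start site, were given for 27 of the 32 members, and 6 of these (22.2%) held TTGCATCA on either strand, beside 1.03% of 27025 genes. The 6 were Atf3, Chac1, Fgf21, Nupr1, Pycr1 and Vldlr. With any base at the third position, TTNCATCA, which includes TTGCATCA, there were 9 of 27 (33.3%, beside 4.51% of genes), adding Trib3, Asns and Pck2. The list was chosen to hold ATF4 targets, so a share above that of all genes was built into the choice. The windows below run 5′ to 3′ on the strand of the gene, end before a start site that RefSeq lists and show the match in capitals. They are shown because both called and uncalled members carry the element.
Fgf21: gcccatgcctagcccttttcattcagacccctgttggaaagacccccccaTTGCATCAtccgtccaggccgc
Chac1: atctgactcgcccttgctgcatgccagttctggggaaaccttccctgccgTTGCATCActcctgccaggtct
Vldlr: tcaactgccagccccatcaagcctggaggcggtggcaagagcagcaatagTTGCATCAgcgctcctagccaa
Nupr1: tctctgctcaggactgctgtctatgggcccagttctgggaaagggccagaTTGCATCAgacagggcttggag
Pycr1: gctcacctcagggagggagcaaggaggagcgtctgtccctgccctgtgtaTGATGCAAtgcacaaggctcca
Atf3: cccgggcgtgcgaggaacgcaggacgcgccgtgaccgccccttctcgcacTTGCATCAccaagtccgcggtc
Pck2: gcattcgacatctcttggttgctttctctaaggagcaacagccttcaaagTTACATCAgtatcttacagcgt
Asns: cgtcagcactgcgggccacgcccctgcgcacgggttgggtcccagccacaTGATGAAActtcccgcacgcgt

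On GRCm38.p6 these windows lie at chr7:45615608-45615679 for Fgf21, chr2:119350999-119351070 for Chac1, chr19:27216770-27216841 for Vldlr and chr7:126625559-126625630 for Nupr1. Those of the others are chr11:120643830-120643901 for Pycr1, chr1:191183422-191183493 for Atf3, chr14:55540113-55540184 for Pck2 and chr6:7693211-7693282 for Asns. The genes on the minus strand are Fgf21, Nupr1, Pycr1, Atf3 and Asns. Pycr1 and Asns hold the element in the opposite orientation. The window of Vldlr precedes the downstream one of its 2 listed start sites and so lies inside the gene, which starts at base 27216480 of chromosome 19. Of the 6 members with TTGCATCA, 4 fell (Fgf21, Chac1, Vldlr and Nupr1), Pycr1 was not called and Atf3 was too scarce to test. Outside the members, 68 tested genes held TTGCATCA, of which 27.9% were called lower and 13.2% higher, with a median log2 fold change of -0.25. Among 9712 tested genes with a promoter and no such match, 23.7% were called lower and 25.4% higher, with a median of 0.03. For TTNCATCA, 261 tested genes outside the members held it, with 24.5% called lower, 23.0% higher and a median of -0.12, close to the 23.7%, 25.4% and 0.03 of those without it. The ATF and CREB element TGACGTCA occurred in 1 of 27 member promoters, that of Ppp1r15a, beside 2.03% of genes. A match gives the letters present and is not a measured binding site.

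Among the 4 eIF2α kinases, 0 were called higher and 2 lower, beside 25.5% and 23.7% of all tested genes. Eif2ak2 encodes PKR, the kinase that senses double-stranded RNA, and its scaled FPKM was 9.46, 8.79 and 7.89 in control replicates 1 to 3 and 3.63, 3.47 and 4.79 in Al replicates 1 to 3. No Al value reached the control range, and the gene fell by 1.13 on the log2 scale, with a standard error (SE) of 0.15 and an adjusted P of 0.000305. Eif2ak4 encodes GCN2, which senses uncharged tRNA, and had 12.5, 11.5 and 9.70 scaled FPKM in control against 7.68, 6.30 and 8.06 in Al libraries. The groups did not overlap, and it fell by 0.60 on the log2 scale (SE 0.14, adjusted P = 0.00527). That value is just past the threshold, and it came to -0.54 without control replicate 1, -0.49 without Al replicate 2, -0.51 with quantile normalization and -0.52 after a correction for GC content and length, each no longer called.

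The other two kinases were not called. Eif2ak3 encodes PERK, the kinase of the endoplasmic reticulum (ER), and its groups overlapped at 12.7 ± 1.11 and 13.3 ± 0.554 scaled FPKM (SD, n = 3 each). The log2 fold change was 0.07 (95% confidence interval -0.17 to 0.31), against -0.42 with FPKM as deposited and -0.71, called lower, with TPM. Eif2ak1 encodes HRI, which responds to haem shortage and mitochondrial stress. It had 15.6 ± 0.0725 scaled FPKM in control and 21.1 ± 1.89 in Al libraries with no overlap, but its log2 fold change of 0.43 was under the threshold and turned to -0.054 with FPKM as deposited and -0.35 with TPM. Exons of Eif2ak1 overlap those of Aimp2 on the opposite strand, and those of Eif2ak3 overlap Gm43292. Those of the called Eif2ak2 overlap Gm26637 and the rRNA gene n-R5s29 over shorter stretches, likewise on the opposite strand; whether the authors counted by strand is not stated, so these values are uncertain. Ppp1r15a, Cebpg and Pck2 also have exons that overlap another gene over short stretches.

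Both regulatory subunits of the eIF2α phosphatase rose, beside 25.5% of all tested genes, and 1 of the 2 was called higher under each of the 3 other scalings. Ppp1r15b encodes CReP, the constitutive subunit, and its scaled FPKM was 41.9, 38.7 and 40.2 in control replicates 1 to 3 and 116, 109 and 92.6 in Al replicates 1 to 3. Every Al value was above every control value, and the log2 fold change was 1.39 (SE 0.11, adjusted P = 2.42e-05). It was called higher under all 20 alternative settings, at the least by 0.60 with TPM, although its exons overlap those of Gm26616 on the opposite strand. Ppp1r15a encodes GADD34, the stress-induced subunit, with 37.3, 41.7 and 47.7 scaled FPKM in control and 75.5, 83.6 and 75.3 in Al libraries. The groups were apart, and the gene rose by 0.89 on the log2 scale (SE 0.12, adjusted P = 0.000235). With other scalings its log2 fold change was 0.40 (FPKM as deposited), 0.10 (TPM) and 0.47 (quantile), and it was not called.

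Of the bZIP factors, Cebpb rose, Atf5 fell and Atf4, Ddit3 and Cebpg were not called. Atf4 had 280.3, 330.4 and 321 FPKM as deposited in control replicates 1 to 3 and 303, 299.6 and 313 in Al replicates 1 to 3, so the deposited values overlapped. After scaling they were 238, 274 and 275 against 379, 369 and 337, with every Al value above the control values. The log2 fold change of Atf4 was 0.47 (SE 0.14, adjusted P = 0.0176), short of the fold threshold, and it was -0.022 with FPKM as deposited, -0.25 with quantile normalization and -0.32 with TPM. Against the median of all tested genes Atf4 stood 0.44 higher in log2 fold change, 0.41 with FPKM as deposited and 0.39 with TPM, but -0.22 with quantile normalization. No setting called Atf4 in either direction.

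Atf5 encodes a factor close to ATF4 that is likewise controlled at translation. Its scaled FPKM was 248, 253 and 250.9 in control and 173, 178 and 127 in Al libraries, with the lowest value in Al replicate 3. The groups did not overlap, and Atf5 fell by 0.67 on the log2 scale (SE 0.15, adjusted P = 0.00499). Without Al replicate 3 its log2 fold change was -0.50 and no longer called, and its exons overlap short stretches of Il4i1 and Nup62 on the opposite strand. Cebpb encodes C/EBPβ, a partner of ATF4, and had 141, 139.9 and 153 scaled FPKM in control against 350.1, 348 and 248 in Al libraries. All Al values exceeded the controls, and Cebpb rose by 1.11 on the log2 scale (SE 0.16, adjusted P = 0.000441), which came to 0.62 with FPKM as deposited and, no longer called, to 0.32 with TPM and 0.43 with quantile normalization. Its exons overlap those of Tmem189 on the opposite strand, a gene at 45.5 ± 4.99 FPKM in control and 46.1 ± 9.78 in Al cells.

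Ddit3, the gene of CHOP, had 29.4, 32.4 and 32.3 scaled FPKM in control and 26.7, 29.0 and 25.3 in Al libraries. The Al values were lower without overlap, by a log2 fold change of -0.22 (95% confidence interval -0.44 to 0.00498, adjusted P = 0.0813). It was -0.73 and called lower after the correction for GC content and length, -0.70 with FPKM as deposited and -1.0 with TPM. Its exons overlap a short stretch of Mars on the opposite strand, a gene at 27.4 ± 1.12 FPKM in control and 16.4 ± 1.06 in Al cells. Cebpg encodes C/EBPγ, another dimer partner, at 17.9 ± 0.736 scaled FPKM in control and 14.1 ± 0.236 in Al libraries. Its log2 fold change of -0.34 (adjusted P = 0.00953) was under the fold threshold, and it was called lower with FPKM as deposited (-0.83) and TPM (-1.13).

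The feedback and stress effectors held the most calls of any role, with 6 of 7 called lower (85.7%, beside 23.7% of all tested genes), 0 higher (beside 25.5%) and a median log2 fold change of -1.32. Trib3 encodes a pseudokinase that restrains ATF4 and CHOP, and its scaled FPKM was 93.2, 102 and 87.5 in control and 17.3, 15.4 and 18.3 in Al libraries. All Al values lay far below the control range, and Trib3 fell by 2.47 on the log2 scale (SE 0.11, adjusted P = 4.03e-06), and ranked 77 of 12889 tested genes from the lowest log2 fold change. Fgf21 encodes a hormone released under metabolic stress, and its scaled FPKM went from 2.24, 1.88 and 2.07 in control to 0.221, 0.310 and 0.200 in Al libraries. Those values rest on 125 to 137 reads per control library and 5 to 7 per Al library. Fgf21 fell by 2.66 (SE 0.23, adjusted P = 3.24e-05), and its log2 fold change was -1.30 with a pseudocount of 1 in place of 0.1.

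Chac1, the gene of an enzyme that degrades glutathione, had 66.0, 70.5 and 74.7 scaled FPKM in control and 35.4, 30.8 and 20.4 in Al libraries. It fell by 1.32 on the log2 scale (SE 0.19, adjusted P = 0.000369) with no overlap. Vldlr encodes a lipoprotein receptor that also binds reelin, and its scaled FPKM was 3.87, 4.41 and 4.70 in control and 1.45, 1.43 and 1.92 in Al libraries. It fell by 1.39 (SE 0.17, adjusted P = 0.00019), again with the groups apart. Stc2, the gene of the secreted glycoprotein stanniocalcin, went from 7.79 ± 0.712 to 4.10 ± 0.626 scaled FPKM and fell by 0.92 on the log2 scale (adjusted P = 0.000794).

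Nupr1 encodes a small stress-induced chromatin protein, with 60.1, 66.5 and 54.4 scaled FPKM in control and 44.6, 25.1 and 36.2 in Al libraries. Nupr1 fell by 0.81 on the log2 scale (SE 0.19, adjusted P = 0.0061), a call lost without Al replicate 2, its lowest library, where the value was -0.57. Ddit4, the gene of the mTORC1 inhibitor REDD1, was the effector that was not called. Its libraries overlapped at 93.4, 91.5 and 116 scaled FPKM in control and 97.5, 113 and 113 in Al cells, and its log2 fold change of 0.11 (95% confidence interval -0.19 to 0.41) was -0.38 with FPKM as deposited, -0.49 with quantile normalization and -0.68, called lower, with TPM.

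Of the 6 amino acid enzymes, 2 fell (33.3%) and 1 rose (16.7%), beside 23.7% and 25.5% of all tested genes. The rise was that of Cbs, which reached the level needed for testing only through its Al values. Aldh18a1 encodes the synthase that starts proline production from glutamate, and its scaled FPKM was 85.4, 81.2 and 81.9 in control and 34.1, 35.7 and 27.9 in Al libraries. The groups were far apart, and Aldh18a1 fell by 1.35 on the log2 scale (SE 0.11, adjusted P = 2.84e-05). Pycr1, the gene of an enzyme that completes proline synthesis, had 9.79, 8.26 and 9.17 in control and 16.0, 13.0 and 6.94 in Al libraries, so that Al replicate 3 was lowest and the others highest. Its log2 fold change was 0.32 (95% confidence interval -0.29 to 0.92), with -0.17 for FPKM as deposited and -0.46 for TPM, and without Al replicate 3 it was 0.68 and called higher.

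Cth encodes cystathionine gamma-lyase, which releases cysteine at the end of transsulfuration. Its scaled FPKM was 20.8, 26.1 and 28.2 in control and 14.8, 13.0 and 12.5 in Al libraries, and it fell by 0.88 on the log2 scale (SE 0.13, adjusted P = 0.000521). Cbs, the gene of the enzyme before it, was at the limit of detection, with 10, 5 and 7 reads in control and 28, 5 and 18 in Al libraries. Its FPKM averaged 0.0649 in control and 0.258 in Al cells, so it reached the 0.1 FPKM needed for testing only through the Al group. That favoured a rise in advance. It was called higher at a log2 fold change of 1.27 (SE 0.45, adjusted P = 0.0369), but only 10 of 19 alternatives kept the call. Its value was 0.30 and not called with a pseudocount of 1, 2.10 with a pseudocount of 0.01 and 2.30 with voom, and stretches of its transcripts nearly match Rdh16 and Vmn1r218, so its reads may be shared. Among the 6 leave-one-out fits, Cbs kept it only without Al replicate 2 (1.74), and its values elsewhere ran from 0.97 to 1.36.

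Asns and Pck2 were not called. Asns, the gene of asparagine synthetase, overlapped between groups at 80.4, 85.1 and 94.7 scaled FPKM in control and 82.3, 73.9 and 55.5 in Al libraries. Its log2 fold change was -0.31 (95% confidence interval -0.66 to 0.04), and it was called lower with FPKM as deposited (-0.80), TPM (-1.10) and quantile normalization (-0.83). Pck2, the gene of mitochondrial phosphoenolpyruvate carboxykinase, had 68.1, 77.0 and 66.8 scaled FPKM in control and 55.3, 45.4 and 41.8 in Al libraries. Its groups did not overlap, and its log2 fold change of -0.58 (adjusted P = 0.00388) lay just short of the threshold; it passed without control replicate 1 (-0.61), control replicate 3 (-0.63) or Al replicate 1 (-0.69), with voom on the recovered reads (-0.60) and under the 3 other scalings.

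The amino acid transporters held the largest single fall of a member, and their 2 falls and 2 rises among 7 (28.6% each) were near the 23.7% and 25.5% of all tested genes. Slc1a5 encodes ASCT2, a sodium-dependent carrier of glutamine and other neutral amino acids, on chromosome 7 from 16781334 to 16798274. Its scaled FPKM was 61.2, 60.2 and 56.8 in control and 6.65, 7.97 and 10.6 in Al libraries, 7.08 times lower on average. Slc1a5 fell by 2.83 on the log2 scale (SE 0.16, adjusted P = 6.45e-06) and stood at rank 30 on the same scale. Slc6a9 encodes the glycine transporter GlyT1, on chromosome 4 from 117835258 to 117869305. It had 66.3, 63.9 and 70.2 scaled FPKM in control and 14.6, 14.4 and 16.0 in Al libraries, and it fell by 2.15 (SE 0.09, adjusted P = 4.03e-06). Exons of Slc6a9 overlap those of Ccdc24 on the opposite strand, a gene at 9.70 ± 1.27 FPKM in control and 8.02 ± 0.874 in Al cells (SD, n = 3 each).

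Of the 2 chains of LAT1, an exchanger of large neutral amino acids, the heavy chain was called and the light chain was not. Slc3a2, the heavy chain gene, had 54.3, 54.2 and 54.5 scaled FPKM in control and 94.7, 78.5 and 81.1 in Al libraries, with no overlap. It rose by 0.64 on the log2 scale (SE 0.10, adjusted P = 0.000851), but its value was 0.15 with FPKM as deposited, 0.16 with quantile normalization and -0.15 with TPM, and it was 0.56, not called, without Al replicate 1. Slc7a5, the light chain gene, overlapped at 171, 164 and 173 against 211, 197 and 146 scaled FPKM. Its log2 fold change of 0.11 (95% confidence interval -0.24 to 0.46) turned to -0.38 with FPKM as deposited, -0.57 with quantile normalization and -0.68, called lower, with TPM.

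Of the cationic amino acid carriers, Slc7a1 went from 48.8 ± 2.97 to 41.5 ± 2.72 scaled FPKM and was not called (log2 fold change -0.23, adjusted P = 0.0679); it was called lower with FPKM as deposited (-0.72), TPM (-1.02) and quantile normalization (-0.58). Slc7a3 was scarce, with 14, 17 and 44 reads in control and 20, 22 and 33 in Al libraries. It was called higher (log2 fold change 1.04, SE 0.37, adjusted P = 0.0361), and 9 of 19 alternatives kept that call; its value was 0.30 with a pseudocount of 1 and 1.44 with 0.01, and the call was lost without control replicate 1 (0.87), control replicate 2 (0.88), Al replicate 2 (1.06) or Al replicate 3 (0.87). Slc38a2, the gene of SNAT2, which takes up small neutral amino acids, had 137, 125 and 119 scaled FPKM in control and 154, 145 and 210.4 in Al libraries. The Al values were higher without overlap, and the log2 fold change of 0.40 (adjusted P = 0.0523) was not called; it was 0.64 and called higher after the correction for GC content and length, and -0.086, -0.38 and -0.23 with FPKM as deposited, TPM and quantile normalization.

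Dividing a library by 1 factor leaves the ratios of its members as they are, whereas quantile normalization and the correction for GC content and length can change them. In 9 of the 10 pairs compared, the 3 Al ratios did not overlap the 3 control ratios, as was so for 80.2% of all 465 pairs of tested members and, for single genes, for 68.1% of all tested genes (P = 0.1 by an exact permutation test, two-sided, and 0.111 adjusted over the pairs). For Trib3 over Ddit3 the ratio went from 3.01 ± 0.263 in control to 0.636 ± 0.0975 in Al libraries (SD, n = 3 each). Chac1 over Ddit3 went from 2.24 ± 0.0691 to 1.07 ± 0.259. After the correction for GC content and length, the log2 change of Trib3 over Ddit3 was -1.76 in place of -2.25. That of Chac1 over Ddit3 was -0.64 in place of -1.10. With quantile normalization they were -2.37 and -1.26. Ddit3 over Atf4 was 0.120 ± 0.00347 in control and 0.0749 ± 0.00403 in Al libraries, a log2 change of -0.68 that was -0.20 with quantile normalization and -1.05 after the correction for GC content and length.

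Atf5 over Atf4 was 0.960 ± 0.0731 in control and 0.439 ± 0.0553 in Al libraries, and Asns over Atf4 was 0.331 ± 0.0185 and 0.194 ± 0.0269. Cebpb over Cebpg moved the other way, from 8.06 ± 0.101 to 22.3 ± 4.03, a log2 change of 1.45 that was 0.86 with quantile normalization. Between the phosphatase subunits, Ppp1r15a over Ppp1r15b was 1.05 ± 0.149 in control and 0.743 ± 0.0846 in Al libraries. Light over heavy chain, Slc7a5 over Slc3a2, was 3.11 ± 0.0782 and 2.18 ± 0.359, and Eif2ak3 over Eif2ak4 was 1.15 ± 0.252 and 1.83 ± 0.303. Only Atf3 over Atf4, with nearly no Atf3 reads, overlapped (exact permutation test, P = 0.7).

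**Figure D3:**
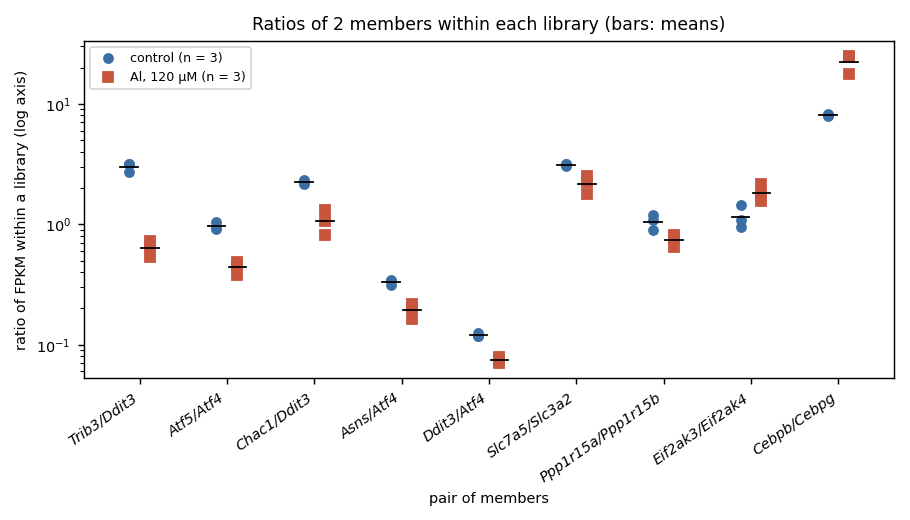
Ratio of the FPKM of 2 members within each library, on a log axis, for 9 pairs, with circles for 3 control and squares for 3 Al libraries and bars at the group means. Trib3 over Ddit3 drops from a mean of 3.01 to 0.636 and Cebpb over Cebpg rises from 8.06 to 22.3, with no overlap between groups in any pair drawn.

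Taken over all tested genes, the median log2 fold change moved by -0.46 with FPKM as deposited and by -0.75 with TPM, so both settings favour lower calls and remove higher ones by construction. FPKM as deposited called 2 members higher and 18 lower, beside 13.5% and 41.3% of all tested genes. TPM called 1 higher and 21 lower, beside 8.85% and 52.2%, and quantile normalization 1 and 15, beside 21.5% and 23.3%. The correction for GC content and length gave 6 and 13, beside 24.4% and 24.8% of 12247 genes, and voom 6 and 14, beside 25.2% and 24.4%. With a log2 threshold of 1 there were 4 and 8 members, beside 15.7% and 13.8% of all tested genes. Of the 13 members called lower, 12 stayed lower under FPKM as deposited, TPM and quantile normalization, the exception being Eif2ak4 with quantile normalization. Eif2ak2, Trib3, Chac1, Vldlr, Fgf21, Aldh18a1, Slc1a5 and Slc6a9 were called lower under all 20 alternatives. Of the 6 members called higher, Ppp1r15b alone kept its call under the 3 other scalings. Set against the all-gene median of each setting, in the order size factors, FPKM as deposited and TPM, Ppp1r15b stood 1.36, 1.33 and 1.32 higher, Cebpb 1.08, 1.05 and 1.04, Ppp1r15a 0.86, 0.84 and 0.82, and Slc3a2 0.61, 0.58 and 0.56. FPKM as deposited and TPM differ from size factors by 1 factor per library, so these distances could hardly move, and quantile normalization, which can move them, reduced them to 0.97, 0.46, 0.49 and 0.19. The scarce Cbs (1.24, 1.45 and 1.58) and Slc7a3 (1.01, 1.13 and 1.21) varied more. The members' median stood -0.34 from that of all tested genes, and -0.37, -0.38 and -0.55 from it under FPKM as deposited, TPM and quantile normalization.

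**Figure D4:**
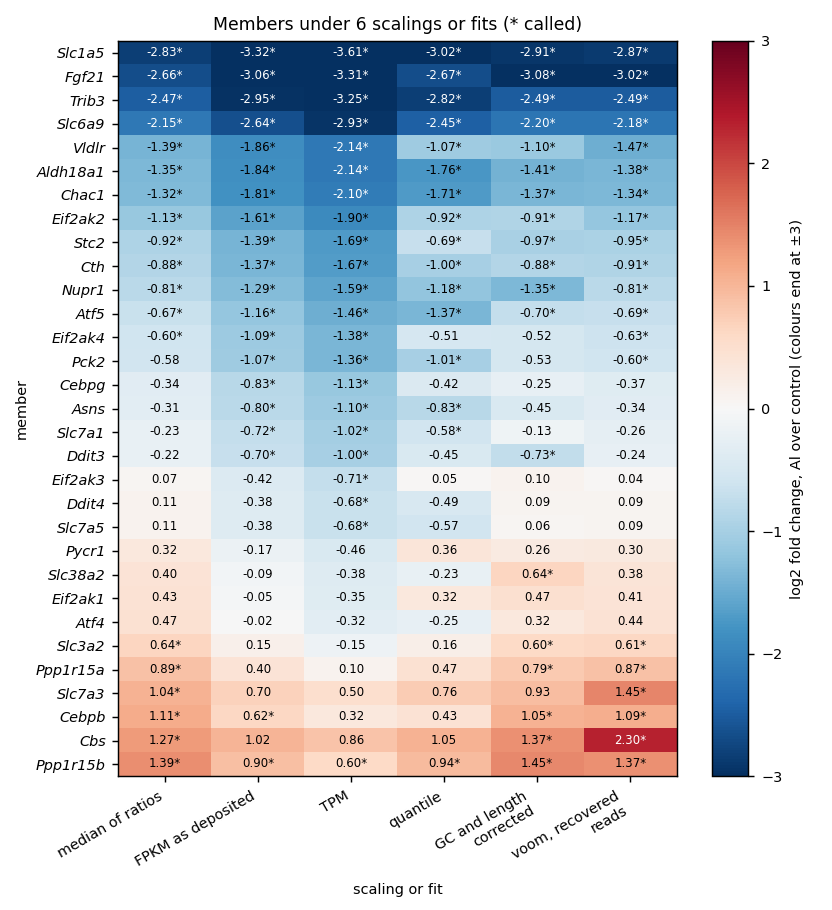
Log2 fold change of the 31 tested members, 1 line each, under the scaling used here, 3 other scalings, a correction for GC content and length and voom on recovered reads, with asterisks at called values. Blue is lower and red higher in Al cells; the 12 members at the top, from Slc1a5 to Atf5, are called lower in all 6 columns, while 6, 2, 1, 1, 6 and 6 members are called higher from left to right.

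Other genes of the pathway and its neighbours were compared through 4 lists. In the list of eIF2, eIF2B and partners of the kinases and phosphatase, 5 of 16 tested genes rose (31.3%, beside 25.5% of all tested genes), 1 fell (6.25%, beside 23.7%) and the median log2 fold change was 0.27, which was -0.21 with FPKM as deposited, 0.074 after quantile normalization and -0.51 with TPM. Relative to the all-gene median it was 0.24, and 0.22, 0.099 and 0.21 in that order. Those that rose were the eIF2 subunit genes Eif2s3x (1.33) and Eif2s1 (0.70), the eIF2B subunit genes Eif2b1 (0.87) and Eif2b5 (0.83) and Impact (0.68), an inhibitor of GCN2 activation. With TPM 0 of the 5 kept the call, and Eif2s1 and Impact turned to -0.083 and -0.099. Quantile normalization kept the calls of Eif2s3x (0.92), Eif2b1 (0.77) and Impact (0.65) but not those of Eif2s1 (0.50) and Eif2b5 (0.52). FPKM as deposited kept that of Eif2s3x alone (0.84). Oma1, a mitochondrial protease that signals to HRI, fell by 1.34 on the log2 scale (adjusted P = 0.00162).

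Among 23 other ATF4 or CHOP targets, 9 fell (39.1%, beside 23.7% of all tested genes) and 3 rose (13.0%, beside 25.5%). Their median of -0.41 stood -0.44 from that of all tested genes, and -0.46, -0.48 and -0.64 from it under FPKM as deposited, TPM and quantile normalization. The largest falls were those of Jdp2 (-1.51), the serine synthesis gene Psph (-1.19), the cystine carrier gene Slc7a11 (-0.98) and the asparaginyl-tRNA synthetase gene Nars (-0.93). Rit1 (1.12), the apoptosis gene Bbc3 (0.85) and Sesn2 (0.75), an inhibitor of mTORC1, were the 3 that rose, and with TPM none of them was called (0.33, 0.065 and -0.032). Rit1 kept its call with FPKM as deposited (0.63) and quantile normalization (0.998). Bbc3 kept its call with quantile normalization (0.91) but not with FPKM as deposited (0.36). Sesn2 was called with neither (0.41 and 0.27). Of 14 other plasma membrane amino acid transporters that could be tested, 3 fell and 3 rose (21.4% each, near the shares of all tested genes), with a median of -0.31. Slc1a4, the closest relative of Slc1a5, fell by 1.71 on the log2 scale and the glutamine carrier gene Slc38a1 by 1.52. Slc7a11, which is in both lists, was the other one to fall. Slc38a10 (0.82) and Slc36a1 (0.70) were called higher, calls that TPM (0.031 and -0.085) and FPKM as deposited (0.33 and 0.21) did not keep. Quantile normalization kept that of Slc36a1 (0.74) but not that of Slc38a10 (0.50). Slc43a1 was also called higher, at 0.00194 ± 0.00336 scaled FPKM in control and 0.563 ± 0.0322 in Al cells. Its mean reached the 0.1 FPKM needed for testing only through its Al values, so a rise was favoured in advance.

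In the IRE1 and ATF6 arms of the ER stress response, 10 of 18 genes were called higher (55.6%, beside 25.5% of all tested genes), 2 lower (11.1%, beside 23.7%) and the median log2 fold change was 0.59. With other scalings the list was called 4 higher and 6 lower at a median of 0.10 (FPKM as deposited), 3 and 7 at -0.19 (TPM) and 2 and 4 at 0.073 (quantile), where all tested genes were called higher and lower at 13.5% and 41.3%, 8.85% and 52.2%, and 21.5% and 23.3%. The list's median stood 0.56 above the all-gene median, and 0.54, 0.52 and 0.099 above it in the same order. The 4 largest rises in the list were those of Dnajb9 at 1.90, Manf at 1.56, Calr at 1.49 and Pdia4 at 1.09; Dnajb9 and Manf were called higher under every scaling. Sdf2l1 (-0.95) and Ern1 (-0.66), the gene of IRE1, fell, and Ern1 was not called after the correction for GC content and length (-0.57). No test compared the lists with each other or with the members.

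**Figure D5:**
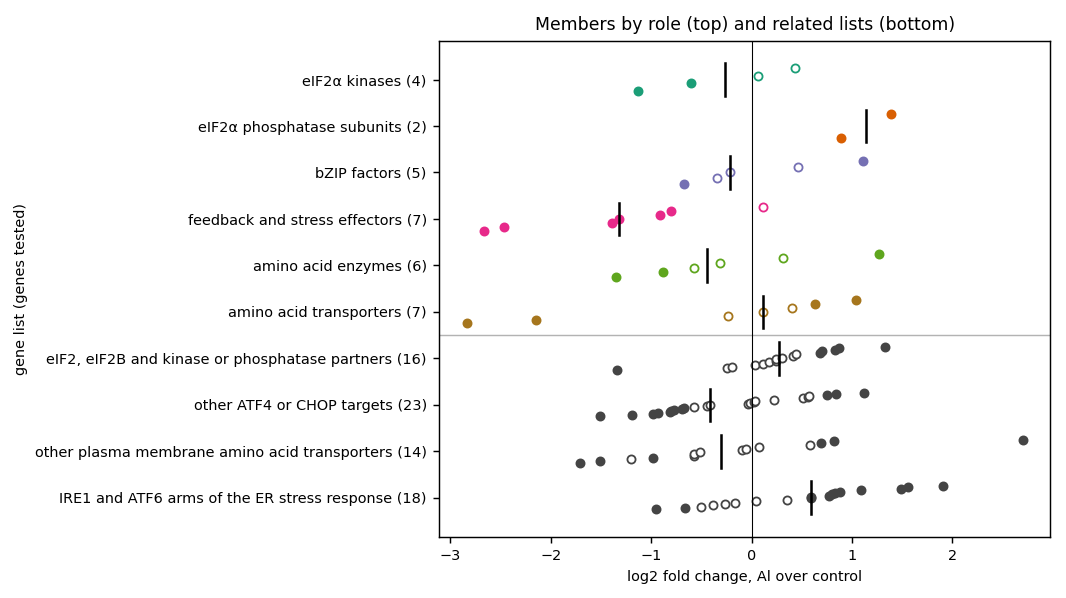
Log2 fold change of each tested gene, Al over control, on the horizontal axis, for the members by role (top 6 lines, coloured) and the 4 related lists (grey), with the number tested in parentheses. Filled points are called, open points are not, and bars mark medians, from -1.32 for the feedback and stress effectors to 1.14 for the 2 phosphatase subunits.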

How the data were processed

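The authors deposited 1 FPKM value per gene symbol and input library. Their text names Trimmomatic, SortMeRNA, HISAT2 and GRCm38/mm10; the submitters' processing notes name fastp, HISAT2, HTSeq and GRCm39, and the series' design text names a BosGru assembly, which is not one of mouse; the program behind the FPKM is not given in the sources used here. Libraries titled M were taken as Al, since the study's expression tables list the same values under that name. Whole reads were recovered for 17687 of 17688 genes above 0, up to a divisor shared by all counts of a gene, which makes them minimum counts.

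The Al and control groups were compared with limma 3.58.1 in R 4.3.3 (lmFit, eBayes with trend) on log2(scaled FPKM + 0.1), for genes averaging 0.1 FPKM or more. Size factors used genes detected everywhere and averaging 1 FPKM or more. Fold changes are on this log2 scale, which understates those of low genes. The study's own test needs counts and was not run, and its unadjusted P was used only as an alternative. TPM here means each library brought to the same sum. Paired ratios used a pseudocount of 0.1 and exact permutation tests. Replicates 1 to 3 are the numbers of the sample titles. The recovery of reads and the calls were tried on simulated data. Rises and falls were simulated in equal number and size, so the choice of scaling was not tested.

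GC content, length and overlaps came from GENCODE and promoters from RefSeq, both on GRCm38; near-identical copies were sought with minimap2 2.31-r1302. Every member is named, and from each related list up to 4 called genes with the largest rise and up to 4 with the largest fall. For the list of eIF2, eIF2B and partners, all 5 genes that rose are named. Members and lists were chosen with earlier results of these data known. Alternatives covered scaling, pseudocount, filter, trend, block, GC content and length, libraries left out, thresholds and voom. Other steps used Python 3.11.15 with pandas 2.3.3 and numpy 2.4.6.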

Additional observations from a re-analysis of the deposited data

How the results depend on the processing

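With 13 members lower and 6 higher as reported, the number higher was 2 with FPKM as deposited, 1 after quantile normalization and 1 with TPM. With TPM 21 members were called lower, and 8 with an absolute log2 fold change over 1. Leaving out 1 library at a time gave 4 to 5 members higher and 11 to 14 lower, and for all genes 3019 to 3417 higher and 2777 to 3214 lower. Over all genes, 1736 were higher and 5321 lower with FPKM as deposited, 1141 and 6734 with TPM, and 2028 and 1784 with an absolute log2 fold change over 1, beside 3291 and 3053 as reported. The share of called genes that were higher was 51.9% as reported, 24.6% with FPKM as deposited, 48.0% after quantile normalization and 14.5% with TPM.

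Log2 fold changes turned negative under FPKM as deposited and TPM for Eif2ak1 (-0.054 and -0.35), Eif2ak3 (-0.42 and -0.71) and Pycr1 (-0.17 and -0.46). Under the 3 other scalings, in the order FPKM as deposited, TPM and quantile, they did so for Atf4 (-0.022, -0.32 and -0.25), Ddit4 (-0.38, -0.68 and -0.49), Slc7a5 (-0.38, -0.68 and -0.57) and Slc38a2 (-0.086, -0.38 and -0.23), and with TPM for Slc3a2 (-0.15). The log2 ratio of Atf3 to Atf4 was -0.13 and became 0.00098 with a pseudocount of 1. Quantile normalization and the GC and length correction of the ratios were added after seeing the data; with them the 9 ratios without overlap kept their direction. The cause was not tested beyond the shift of the median of all genes under FPKM as deposited and TPM.

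The same-numbered control and Al libraries did not deviate together (correlations of -0.0750, -0.0571 and -0.106), and the labels give no shared source. A replicate block left 6 members higher and 13 lower, and 3248 and 3007 of all genes. Precision is limited by 3 libraries a group and, for Fgf21, Cbs, Slc7a3 and Atf3, by few reads.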
